A study of Rhodotorula toruloides with 36 samples.

Results

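At 64 h the effect of acetate differed between low and high nitrogen for 4656 of the 8314 genes tested, and the difference between its 2 effects is the quantity described here. The samples were the 12 libraries of 64 h, of 36 libraries in the series, all of the yeast strain Rhodotorula toruloides IFO0880. They were chosen by the time in their labels and form 4 groups of 3, which are low or high nitrogen with no acetate or with acetate. Ammonium sulfate stood at 0.1 g/L in low nitrogen, and the series' design lists 0.75 g/L yeast extract for this medium. Whether the other medium held yeast extract is not given. For high nitrogen the treatment protocol has 5 g/L of the salt and the design has 10 g/L. The treated flasks received 2 g/L acetate, and the labels do not state the carbon source of these flasks, although the series title speaks of xylose. The inocula came from 3 colonies grown on glucose, each split over 4 flasks. A replicate number is not said to mark a colony, so p-values measure the spread between replicate samples, estimated over all 36 libraries and not these 12 alone. What is called a nitrogen difference may include one in yeast extract.

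R. toruloides is a red basidiomycete yeast known for storing lipid when nitrogen runs short while carbon remains. Acetate taken up by a yeast is activated to acetyl-CoA, which can be oxidised in the tricarboxylic acid cycle, pass through the glyoxylate cycle to sugars, or serve as the building block of fatty acids. Nitrogen supply and acetate therefore meet in the same part of metabolism, and the question put to the data was which genes answered acetate in a way that depended on nitrogen. The interaction of a gene is its acetate effect in low nitrogen minus its acetate effect in high nitrogen, both as log2 fold changes, so that 0 means equal effects. The files pair the genes with catalogue and protein numbers and with positions on the version 4 assembly of the strain, but with no names, and the reference table holds another strain. Genes are therefore given by number, and no function can be attached to them.

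The 12 libraries held between 10173719 and 46654010 counts, the fewest in replicate 1 of low nitrogen with acetate, where 3 counts correspond to 0.410 CPM (counts per 1000000, after TMM scaling). In the library with most counts the same 3 are 0.0672 CPM. These limits cover counting error only. The first principal component of log2 CPM over these libraries held 65.6% of the variance and separated low from high nitrogen, and the second, with 20.0%, separated acetate from no acetate within each medium. Within groups Pearson's r across genes lay between 0.981 and 0.996. Some libraries stood apart from their partners. Replicate 2 of high nitrogen without acetate gave a chi-square per degree of freedom of 100 and 115 against its partners, which gave 18.8 between themselves. Replicate 1 of low nitrogen without acetate gave 39.4 and 41.9, against 10.8. Both were kept, and some counts without the pair of them are given below. For replicate 1 of low nitrogen with acetate the values were 25.5 and 43.0, against 15.1, and without it 2738 genes were called for acetate in low nitrogen and 581 for low nitrogen only, where the full set gave 3481 and 802.

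Of 8314 genes tested, 4656 had an interaction, which is 56% (quasi-likelihood F test of edgeR, with p adjusted by Benjamini-Hochberg over all genes and a threshold of 0.05). The interaction was above 0 in 2656 of them (31.9% of the genes tested) and below 0 in 2000 (24.1%). It reached 2-fold, 1 unit on the log2 scale, in 809 genes above 0 (9.73%) and 680 below 0 (8.18%). Which side was in the majority was not stable, and the lower side held it in 13 of 21 alternative settings. It did so in 11 of the 12 fits without 1 library, the exception being the fit without replicate 2 of high nitrogen with acetate, with 2540 above 0 and 1955 below. The median interaction over all genes was 0.10 in the main fit and in that exception. In the other 11 fits it lay between -0.003 and 0.017, and with only the 12 libraries it was 0.014. The cause of this shift was not tested. The 2-fold counts turned in 15 of the 21 settings, to 706 above and 773 below with no filter and to 664 and 778 with only the 12 libraries. Without both libraries that stood apart 1878 genes were above 0 and 2104 below, and in the fit of the 12 libraries the numbers of all called genes were 2084 and 2156. With library totals alone they were 2848 and 1791, and the median over all genes moved from 0.10 to 0.16 for the interaction, from 0.00 to -0.18 for the acetate effect in low nitrogen and from -0.07 to -0.31 for that in high nitrogen.

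Acetate alone, taken within a medium, was called for 3481 genes in low nitrogen (41.9%) and 5559 in high nitrogen (66.9%). Without both libraries that stood apart these counts were 3531 and 4968. Without only replicate 2 of high nitrogen without acetate they were 3881 and 4952. Among the 4656 interaction genes the effect was the larger of both in high nitrogen for 3270, or 70.2%, against 64.3% of all genes tested. The median absolute log2 change of the interaction genes was 0.28 in low and 0.59 in high nitrogen. For the 1489 genes with an interaction of at least 2-fold it was 0.39 in low and 1.21 in high nitrogen.

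The interaction genes were sorted by whether acetate was called in each medium and in which direction. In 2429 genes (52.2% of the interaction genes) acetate was called in high nitrogen only, and in 802 (17.2%) in low nitrogen only. In 786 genes (16.9%) acetate was called in both media with opposite signs. In 384 genes (8.25%) it was called in both with the same sign and a larger size in high nitrogen, and in 138 (2.96%) with the same sign and a larger size in low nitrogen. The remaining 117 genes (2.51%) had an interaction but no called effect in either medium. Without both libraries that stood apart, 1881 of 3982 interaction genes were called in high nitrogen only and 810 in low nitrogen only. Without only replicate 2 of high nitrogen without acetate, the counts were 1844 and 896 of 4205. The sorting uses the same values as the interaction test, so these numbers describe the genes and test nothing further. A gene called in 1 medium can also have a smaller effect in the other that the test missed.

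**Figure D1:**
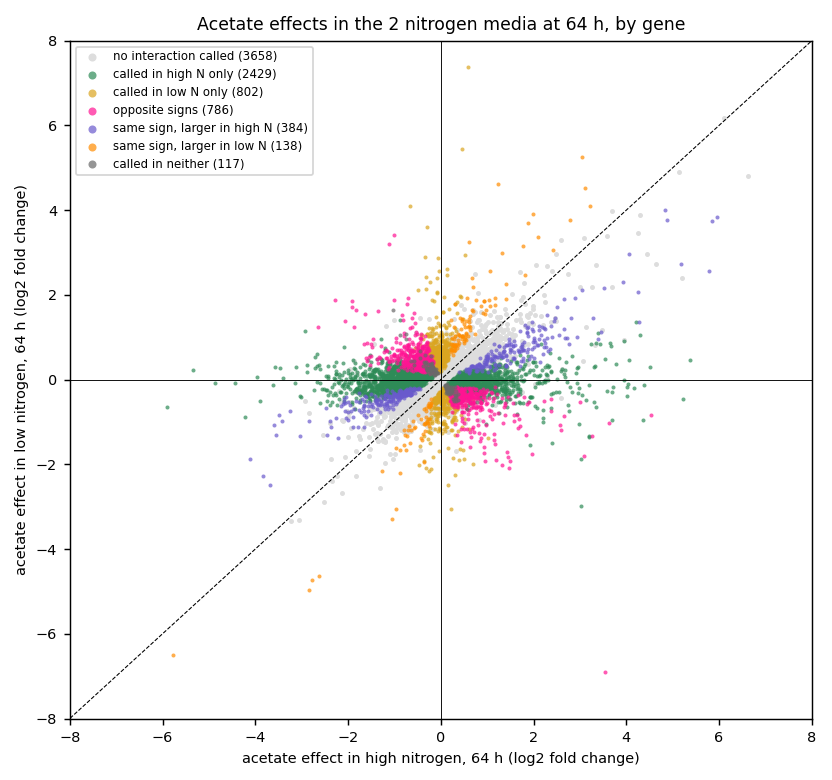
Each point is 1 of the 8314 genes tested, with the log2 fold change with acetate in high nitrogen on the x axis and in low nitrogen on the y axis at 64 h. The dashed line marks equal effects, colours mark the patterns, and the 2429 genes called in high nitrogen only spread along the x axis.

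**Figure D2:**
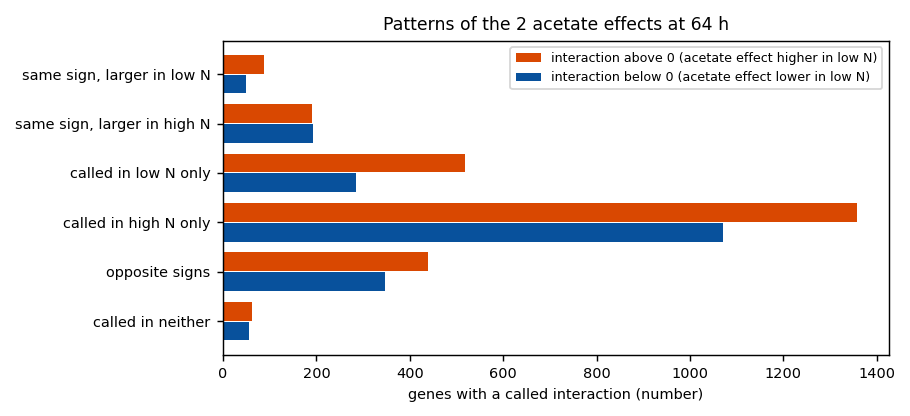
Bars give the number of interaction genes in each pattern, split by whether the interaction was above or below 0. The longest pair is that of genes called in high nitrogen only, with 1358 genes above and 1071 below 0.

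Acetate effects called in low nitrogen only were a minority but held the gene with the largest positive interaction that met the naming rule. Acetate raised 518 of the 802 genes and lowered 284. Over all genes tested, acetate in low nitrogen raised 23% and lowered 18.8%, at least 2-fold for 3.67% and 2.5%. Of the 802 genes the change was at least 2-fold for 67 raised and 53 lowered ones. Their absolute log2 change in high nitrogen had a median of 0.12 and quartiles of 0.06 and 0.19, and for 110 of them the adjusted p there lay between 0.05 and 0.1. Of the raised genes 39 met all criteria of the naming rule, with a median interaction of 1.42, and of the lowered genes 29, with a median of -1.30. The rule asks for no overlap between acetate and control libraries in the medium with the called or larger effect. Such separation in a named gene was thus selected for.

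The gene mRNA_5861 (protein 14229, scaffold 5, 1105736 to 1108814, minus strand, 19 exons) rose in low nitrogen. Its levels there were 17.0, 20.5 and 19.3 CPM without acetate and 3836, 2987 and 2619 CPM with it. In high nitrogen they were 24.2, 19.1 and 23.9 CPM without and 32.5, 33.8 and 34.4 CPM with acetate. The 3 low-nitrogen acetate libraries thus stood far above the other 9, and in high nitrogen the acetate libraries were also all above the controls, by little. The log2 fold change was 7.38 (SE 0.33) in low nitrogen and 0.58 (SE 0.26, adjusted p = 0.0519) in high nitrogen, and the interaction of mRNA_5861 was 6.79 (SE 0.40, adjusted p = 1.40e-13). Of 21 alternative settings, 14 called the small rise in high nitrogen too, among them the fits without any 1 low-nitrogen library and without replicate 1 of high nitrogen without acetate. On those settings it counts as raised in both media.

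The other gene of this kind, mRNA_3993 (protein 12361, scaffold 2, 1098297 to 1099754, plus strand, 5 exons), went from 11.6, 9.51 and 8.45 CPM to 164, 120 and 73.2 CPM with acetate in low nitrogen. In high nitrogen it had 2.66, 2.22 and 3.47 CPM without acetate and 2.58, 1.91 and 2.29 CPM with it. The groups did not overlap in low nitrogen and overlapped in high nitrogen. Its interaction was 3.88 (SE 0.33, adjusted p = 3.49e-10), from log2 fold changes of 3.59 (SE 0.21) and -0.29 (SE 0.26).

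Among genes that acetate lowered in low nitrogen only, mRNA_7351 (protein 15719, scaffold 8, 71285 to 73223, minus strand, coding length 579 bp) was abundant in 3 of the 4 groups. It had 1173, 1376 and 1261 CPM in low nitrogen without acetate, and 95.0, 179 and 182 CPM with it. In high nitrogen the values of mRNA_7351 were 1292, 634 and 981 CPM without and 986, 1346 and 1073 CPM with acetate. The low-nitrogen acetate libraries lay below all 9 others, while the high-nitrogen groups overlapped. The interaction was -3.28 (SE 0.47, adjusted p = 1.44e-06).

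A similar shape was seen for mRNA_5646 (protein 14014, scaffold 5, 586349 to 588423, minus strand, 6 exons). In low nitrogen it had 251, 176 and 191 CPM without acetate and 28.3, 33.7 and 47.5 CPM with it, and in high nitrogen 122, 110 and 168 CPM without and 162, 144 and 144 CPM with it. Again the 3 acetate libraries of low nitrogen lay below all 9 others, and the high-nitrogen groups overlapped. The log2 fold change of mRNA_5646 was -2.48 (SE 0.35) in low and 0.17 (SE 0.32, adjusted p = 0.663) in high nitrogen, with an interaction of -2.65 (SE 0.47, adjusted p = 3.29e-05).

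Genes with an acetate effect called in high nitrogen only made up the largest pattern. Acetate raised 1071 of the 2429 genes and lowered 1358, at least 2-fold for 347 and 483 of them. Over all genes tested, acetate in high nitrogen raised 30.4% and lowered 36.5%, at least 2-fold for 8.78% and 9.43%. In low nitrogen their absolute log2 change had a median of 0.13 and quartiles of 0.07 and 0.22, and 296 had an adjusted p between 0.05 and 0.1 there. The naming criteria were met by 194 raised genes, with a median interaction of -1.39, and by 212 lowered ones, with a median of 1.36.

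Of the raised genes, mRNA_1136 (protein 9504, scaffold 10, 492324 to 493013, minus strand, coding length 531 bp) was near 1 CPM or lower in 3 groups. It had 0.826, 1.07 and 1.01 CPM in high nitrogen without acetate and 26.7, 16.0 and 16.9 CPM with it. In low nitrogen there were 0.938, 1.49 and 0.973 CPM without and 0.683, 0.389 and 0.722 CPM with acetate, the latter from 26 counts over 3 libraries. All 3 high-nitrogen acetate libraries stood above the other 9, and in low nitrogen the acetate libraries lay below the controls without overlap. The log2 fold change of mRNA_1136 was 4.36 (SE 0.28) in high and -0.96 (SE 0.42, adjusted p = 0.0626) in low nitrogen, and its interaction was -5.33 (SE 0.49, adjusted p = 1.03e-09). The lower level in low nitrogen was called as well in 6 of 21 alternative settings, which place the gene among those of opposite sign. They were DESeq2, library totals alone, and the fits without replicate 1 of low nitrogen without acetate, replicate 3 of low nitrogen with acetate, or replicate 1 or 3 of high nitrogen with acetate. After thinning to the smallest library the interaction was -4.55.

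The second, mRNA_4886 (protein 13254, scaffold 3, 1220808 to 1222582, plus strand, 4 exons), had 4.39, 4.58 and 5.73 CPM in high nitrogen without acetate and 219, 172 and 219 CPM with it. In low nitrogen it had 15.4, 12.6 and 13.6 CPM without and 20.5, 17.3 and 19.4 CPM with acetate. Without acetate the gene was thus higher in low nitrogen, and with acetate it was higher in high nitrogen, with no overlap either way. The interaction of mRNA_4886 was -4.91 (SE 0.28, adjusted p = 9.85e-14), and the small change in low nitrogen, 0.45 (SE 0.19, adjusted p = 0.0603), was called with DESeq2, with the replicate block and with only the 12 libraries.

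Of the lowered genes, mRNA_4664 (protein 13032, scaffold 3, 726473 to 727733, plus strand, 2 exons) was high in a single group. It had 955, 678 and 1071 CPM in high nitrogen without acetate and 22.5, 21.0 and 23.5 CPM with it. In low nitrogen it had 6.67, 8.96 and 7.93 CPM without and 12.7, 7.50 and 8.78 CPM with acetate. Acetate thus took the gene in high nitrogen most of the way towards its level in low nitrogen, where the groups overlapped. Its interaction was 5.57 (SE 0.47, adjusted p = 2.83e-10), with log2 fold changes of -5.34 (SE 0.34) in high and 0.24 (SE 0.35, adjusted p = 0.623) in low nitrogen.

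The single-exon gene mRNA_1684 (protein 10052, scaffold 11, 883850 to 884776, minus strand) had 11.5, 4.75 and 14.2 CPM in high nitrogen without acetate and 0.134, 0.212 and 0.191 CPM with it, a total of 14 counts in 3 libraries. In low nitrogen its levels were 41.3, 60.3 and 46.4 CPM without and 21.5, 34.4 and 37.5 CPM with acetate. The acetate libraries lay below the controls in both media, far below in high nitrogen and by less in low nitrogen. The log2 fold change of mRNA_1684 was -5.91 (SE 0.50) in high and -0.64 (SE 0.26, adjusted p = 0.0514) in low nitrogen, and the interaction was 5.27 (SE 0.61, adjusted p = 5.55e-08). In 12 of 21 alternative settings the change in low nitrogen was called too, which counts the gene as lowered in both media. Among them were the fits without replicate 1 of low nitrogen without acetate, replicate 3 of low nitrogen with acetate, replicate 1 or 3 of high nitrogen with acetate, or any 1 library of high nitrogen without acetate.

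**Figure D3:**
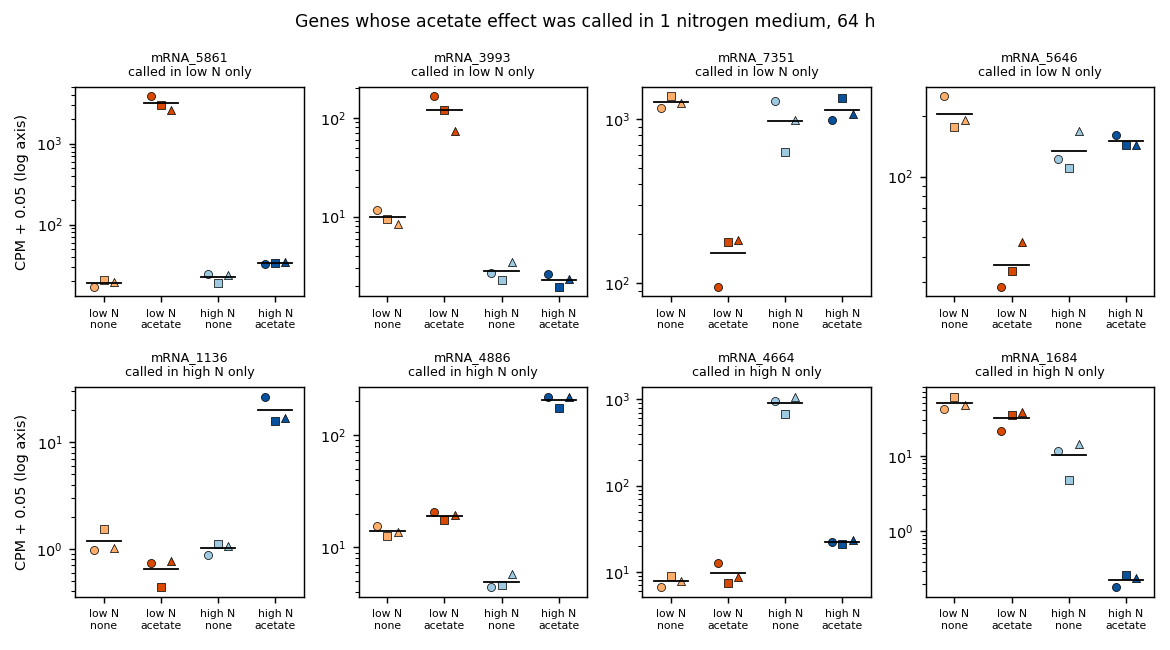
Each panel shows 1 of the 8 named genes with an acetate effect called in 1 medium, as CPM + 0.05 on a log axis for the 12 libraries, with circles, squares and triangles for replicates 1, 2 and 3 and a line at the group mean. In the upper row the low-nitrogen acetate libraries stand alone, as for mRNA_5861 between 2619 and 3836 CPM. In the lower row acetate separates the 2 high-nitrogen groups, which the naming rule required.

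Opposite signs were found for 786 genes, of which acetate raised 439 in low and lowered them in high nitrogen and did the reverse for 347. Most of these changes were small, with a median absolute log2 change of 0.44 in low and 0.47 in high nitrogen. At least 2-fold in both media, and with an interaction of at least 2-fold, there were 12 genes of the first kind and 20 of the second. The naming criteria ask here for 0.5 log2 units, and for no overlap between acetate and control libraries, in both media. They were met by 71 genes of the first kind, with a median interaction of 1.51, and by 67 of the second, with a median of -1.93.

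Acetate raised mRNA_3997 (protein 12365, scaffold 2, 1108817 to 1109797, minus strand, 4 exons) in low nitrogen, from 4.85, 4.70 and 4.56 CPM to 13.5, 20.6 and 16.7 CPM. It lowered the gene in high nitrogen, from 88.9, 184 and 55.6 CPM to 16.9, 27.0 and 24.5 CPM. The controls of both media differed widely, while with acetate the media overlapped. The interaction of mRNA_3997 was 4.15 (SE 0.39, adjusted p = 1.51e-09), and 3.46 without replicate 2 of high nitrogen without acetate, the library that stood apart and the highest of its group for this gene.

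The same convergence was seen for mRNA_4668 (protein 13036, scaffold 3, 736193 to 738048, plus strand, 1 exon). It went from 1.36, 1.77 and 1.35 CPM to 4.51, 2.82 and 3.61 CPM with acetate in low nitrogen, and from 47.8, 19.6 and 39.1 CPM to 4.91, 7.79 and 4.53 CPM in high nitrogen. With acetate the lowest library of high nitrogen lay just above the highest of low nitrogen. The log2 fold changes of mRNA_4668 were 1.25 (SE 0.44, adjusted p = 0.0230) and -2.65 (SE 0.34), with an interaction of 3.89 (SE 0.55, adjusted p = 1.36e-06). The rise in low nitrogen was not called in 4 of the 12 fits without 1 library, which were those without replicate 1 or 3 of low nitrogen without acetate and without replicate 1 or 3 of low nitrogen with acetate.

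The largest absolute interaction among the named genes was that of mRNA_7939 (protein 16307, scaffold 9, 58388 to 59651, plus strand, 6 exons). In low nitrogen it had 8.60, 13.3 and 10.9 CPM without acetate, and with acetate 0, 0.0974 and 0.111 CPM, which is 4 counts over 3 libraries. In high nitrogen mRNA_7939 had 0.225, 0.356 and 0.475 CPM without and 5.06, 3.87 and 3.53 CPM with acetate. Without acetate the gene was therefore seen mainly in low nitrogen and with acetate mainly in high nitrogen, and no 2 groups overlapped. The fitted log2 fold change was -6.90 (SE 0.44) in low and 3.53 (SE 0.32) in high nitrogen. The interaction, -10.44 (SE 0.54, adjusted p = 1.62e-14), rests on those 4 counts and was -13.41 after thinning.

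In the same direction, mRNA_4318 (protein 12686, scaffold 2, 1892804 to 1894044, minus strand, 7 exons) had 5.52, 6.08 and 5.42 CPM without and 2.60, 3.41 and 3.17 CPM with acetate in low nitrogen. In high nitrogen it had 3.75, 3.47 and 6.53 CPM without and 92.3, 102 and 129 CPM with acetate. Its large rise was in high nitrogen, and the fall in low nitrogen was small. The groups did not overlap in either medium, which the naming rule required. The log2 fold change of mRNA_4318 was 4.52 (SE 0.26) in high and -0.85 (SE 0.32, adjusted p = 0.0315) in low nitrogen, and the interaction was -5.37 (SE 0.40, adjusted p = 1.85e-11). The fall was not called without replicate 2 of low nitrogen without acetate, without replicate 1 of low nitrogen with acetate, or after thinning.

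Acetate also moved genes in 1 direction in both media but by unequal amounts. In high nitrogen the change was the larger for 384 genes, 193 raised and 191 lowered, and the median ratio of the larger to the smaller log2 change was 2.36. In low nitrogen it was the larger for 138 genes, 88 raised and 50 lowered, with a median ratio of 2.28. At least 2-fold in the medium with the larger change were 147 raised and 110 lowered genes of the first kind, and 61 raised and 31 lowered genes of the second.

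With a larger effect in high nitrogen, mRNA_1213 (protein 9581, scaffold 10, 665089 to 665972, minus strand, 3 exons) rose from 11.0, 15.0 and 11.1 CPM to 640, 691 and 701 CPM. In low nitrogen it rose from 6.72, 8.46 and 6.73 CPM to 56.2, 44.4 and 31.1 CPM. The groups overlapped in neither medium, and the acetate libraries of high nitrogen stood above those of low nitrogen. The log2 fold changes of mRNA_1213 were 5.78 (SE 0.17) and 2.57 (SE 0.16), and the interaction was -3.21 (SE 0.21, adjusted p = 2.19e-12).

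The gene mRNA_3377 (protein 11745, scaffold 17, 531386 to 533428, minus strand, 7 exons) rose from 3.04, 1.87 and 7.09 CPM to 87.2, 73.0 and 79.8 CPM in high nitrogen and from 4.22, 4.76 and 5.20 CPM to 17.1, 11.7 and 9.11 CPM in low nitrogen. Without acetate the media overlapped, and with acetate they did not. The interaction was -2.91 (SE 0.43, adjusted p = 2.29e-06). It was -3.75 without replicate 3 of high nitrogen without acetate, which had the highest control value of mRNA_3377.

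On the lowered side, mRNA_290 (protein 8658, scaffold 1, 688933 to 691146, plus strand, 8 exons) fell from 17.4, 22.0 and 18.5 CPM to 1.77, 0.954 and 1.91 CPM in high nitrogen and from 9.28, 10.8 and 10.8 CPM to 4.78, 4.77 and 5.11 CPM in low nitrogen. It was the higher in high nitrogen without acetate and the higher in low nitrogen with it. The interaction of mRNA_290 was 2.52 (SE 0.24, adjusted p = 2.43e-09).

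In contrast, mRNA_1992 (protein 10360, scaffold 12, 690779 to 693096, minus strand, 7 exons) was higher in low nitrogen in both states. It fell from 58.4, 43.6 and 44.0 CPM to 23.8, 26.2 and 23.8 CPM there, and from 20.4, 18.7 and 24.3 CPM to 1.88, 2.23 and 1.86 CPM in high nitrogen. Acetate thus widened the distance between the media for this gene. Its interaction was 2.44 (SE 0.28, adjusted p = 4.53e-08).

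With a larger effect in low nitrogen, mRNA_1339 (protein 9707, scaffold 11, 33466 to 34202, plus strand, coding length 468 bp) rose from 1.72, 2.60 and 1.95 CPM to 64.2, 54.3 and 35.3 CPM. In high nitrogen it rose from 86.1, 56.2 and 94.9 CPM to 188, 172 and 195 CPM. The larger change in low nitrogen started from a far lower level, and with acetate the low-nitrogen libraries overlapped the high-nitrogen controls. The log2 fold changes of mRNA_1339 were 4.61 (SE 0.28) and 1.23 (SE 0.21), and the interaction was 3.39 (SE 0.35, adjusted p = 8.42e-09).

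For mRNA_3416 (protein 11784, scaffold 18, 42225 to 43655, plus strand, 2 exons) the rise in low nitrogen went from 9.33, 12.7 and 12.9 CPM to 157, 112 and 66.6 CPM, and that in high nitrogen from 7.81, 6.93 and 6.47 CPM to 12.0, 9.17 and 11.0 CPM. The smaller rise was still without overlap between the groups. The interaction of mRNA_3416 was 2.64 (SE 0.33, adjusted p = 1.93e-07). The effect in high nitrogen, 0.61 (SE 0.24, adjusted p = 0.0247), was not called without replicate 1 of high nitrogen with acetate, without replicate 3 of high nitrogen without acetate, with library totals alone or after thinning.

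Acetate lowered mRNA_5233 (protein 13601, scaffold 4, 221430 to 224713, plus strand, 12 exons) from 1666, 1905 and 2291 CPM to 52.1, 57.5 and 78.4 CPM in low nitrogen and from 586, 407 and 646 CPM to 69.1, 91.7 and 68.5 CPM in high nitrogen. The controls of low nitrogen were above those of high nitrogen, and with acetate the media overlapped. The interaction of mRNA_5233 was -2.12 (SE 0.26, adjusted p = 1.26e-07).

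For mRNA_6964 (protein 15332, scaffold 7, 550832 to 553525, plus strand, 6 exons) the fall went from 20.0, 23.3 and 16.5 CPM to 1.37, 2.09 and 2.28 CPM in low nitrogen, and from 59.5, 67.7 and 54.7 CPM to 32.2, 25.3 and 29.7 CPM in high nitrogen. This gene was the higher in high nitrogen in both states, and acetate widened that distance. Its interaction was -2.24 (SE 0.33, adjusted p = 2.17e-06).

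**Figure D4:**
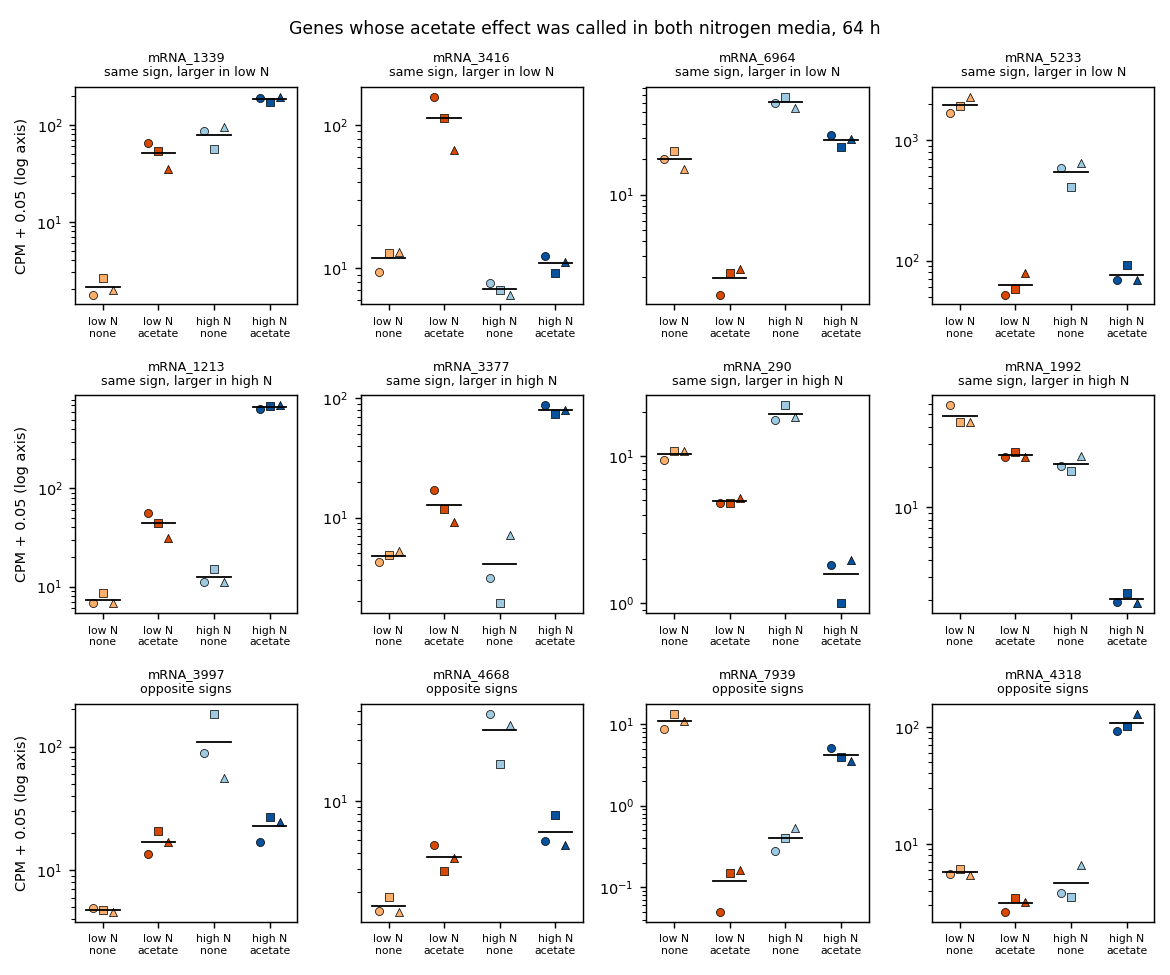
Each panel shows 1 of the 12 named genes with an acetate effect called in both media, as CPM + 0.05 on a log axis for the 12 libraries, with circles, squares and triangles for replicates 1, 2 and 3 and a line at the group mean. In the bottom row mRNA_3997 and mRNA_4668 converge with acetate, while mRNA_7939 exchanges a level of 8.60 to 13.3 CPM in low nitrogen without acetate for 3.53 to 5.06 CPM in high nitrogen with it.

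Seen over the 4 groups, the 1489 genes with an interaction of at least 2-fold most often had their outlying group in high nitrogen with acetate. For 726 of them, or 48.8%, the mean log2 CPM of that group was the farthest from the mean of the other 3, against 36.2% of all genes tested. It lay above that mean for 328 and below it for 398 of these 726. High nitrogen without acetate was farthest for 452 genes (30.4%, against 27.8% of all tested), low nitrogen with acetate for 168 (11.3%, against 18.5%) and low nitrogen without acetate for 143 (9.60%, against 17.5%).

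The distance between the media also differed with acetate. The median absolute difference in log2 CPM between low and high nitrogen of these 1489 genes was 0.82 without and 1.10 with acetate, and for 894 of them (60.0%) it was the larger with acetate, against 54.7% of all genes tested. The order of the media was reversed by acetate in 697 genes (46.8%, against 25.5% of all tested). Genes of opposite sign had a reversed order in 397 of 786 cases. The interaction equals the change with acetate in the difference between the media, so choosing genes for a large one favours a reversed order. The higher share of reversals is thus partly built in. No test was applied to these descriptions.

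The same interaction was measured at 48 and 88 h in other libraries, and the labels do not say whether these came from the same flasks. The flasks stated for each colony suffice for the combinations of nitrogen and acetate at a single time. The same flasks were thus probably sampled at all 3 times. The tests have no term for flask and treat the libraries as independent. Repeated sampling is therefore not allowed for in the p-values, including those for changes between times. The interaction was called for 4719 genes at 48 h (56.8%) and for 5236 at 88 h (63%). Of the 4656 genes of 64 h, 2163 were called with the same sign at 48 h (46.5% of those of 64 h and 45.8% of those of 48 h) and 601 with the opposite sign. At 88 h 2707 were called with the same sign (58.1% and 51.7%) and 453 with the opposite sign. With the same sign at all 3 times were 1446 genes, and among the 1489 genes of at least 2-fold 583. By pattern, the same sign was called at 88 h for 1566 of the 2429 genes of high nitrogen only, 348 of the 802 of low nitrogen only and 469 of the 786 of opposite sign. At 48 h these counts were 1127, 353 and 448.

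A test of the change in the interaction between times, added after the data were seen, called 3569 of all genes tested between 48 and 64 h (42.9%) and 3318 between 64 and 88 h (39.9%). Of the 4656 interaction genes 2245 differed from 48 h (48.2%) and 1973 from 88 h (42.4%), and 1508 differed from neither. For 808 genes both changes were called and the interaction at 64 h lay beyond both other times in the direction of its own sign. Absolute sizes were not compared, so an interaction of opposite sign at another time can be farther from 0.

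Of the 20 named genes 12 had an interaction called with the same sign at all 3 times. Their patterns describe 64 h and need not hold at the other times. In high nitrogen the acetate effect was 3.72 at 48 h for mRNA_5646 and -1.39 at 88 h for mRNA_1339. In low nitrogen it was -1.07 at 48 h for mRNA_1213. For mRNA_3993 the effect in high nitrogen was -0.03 at both 48 and 88 h. The interaction of mRNA_5861 was 5.70 (SE 0.39) at the first time and 8.63 (SE 0.41) at the last. From 64 to 88 h it grew by 1.83 (SE 0.52, adjusted p = 0.00607), and at 88 h the acetate effect on this gene in high nitrogen was -1.96. The values of mRNA_7939 were -8.18 (SE 0.61) and -5.24 (SE 0.44) in the same order, and the change from 64 to 88 h was 5.20 (SE 0.86, adjusted p = 3.42e-05). That of mRNA_1136 was -4.49 (SE 0.44) and -3.75 (SE 0.45), with no called change between times.

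The other 8 named genes were not called with the same sign at all times. For mRNA_5233 the interaction turned from 1.40 (SE 0.26, adjusted p = 3.36e-05) at 48 h to -2.12 at 64 h and -5.44 (SE 0.27, adjusted p = 1.11e-15) at 88 h, and both steps were called. At 48 h its acetate log2 fold change was -3.86 in low and -5.26 in high nitrogen, and at 88 h -4.32 and 1.12. The interaction of mRNA_3416 turned from -0.82 (SE 0.33, adjusted p = 0.0351) at 48 h to 2.64, a change of 3.45 (SE 0.46, adjusted p = 1.37e-06).

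A further 3 of these genes had an interaction that was not called at 48 h. It was 0.15 (SE 0.56, adjusted p = 0.838) for mRNA_4664, 0.56 (SE 0.52, adjusted p = 0.366) for mRNA_1684 and -0.72 (SE 0.40, adjusted p = 0.123) for mRNA_4318. The changes from 48 to 64 h were 5.42 (SE 0.71, adjusted p = 9.43e-07), 4.72 (SE 0.87, adjusted p = 8.54e-05) and -4.65 (SE 0.57, adjusted p = 3.13e-07) in that order, and all 3 genes had an interaction at 88 h. For mRNA_3377, mRNA_1992 and mRNA_6964 it was called at 48 and 64 h and not at 88 h, where it was -0.31 (SE 0.45), -0.16 (SE 0.25) and -0.43 (SE 0.30). The change from 64 to 88 h was called for each of these, with adjusted p of 0.00146, 6.49e-06 and 0.00226.

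**Figure D5:**
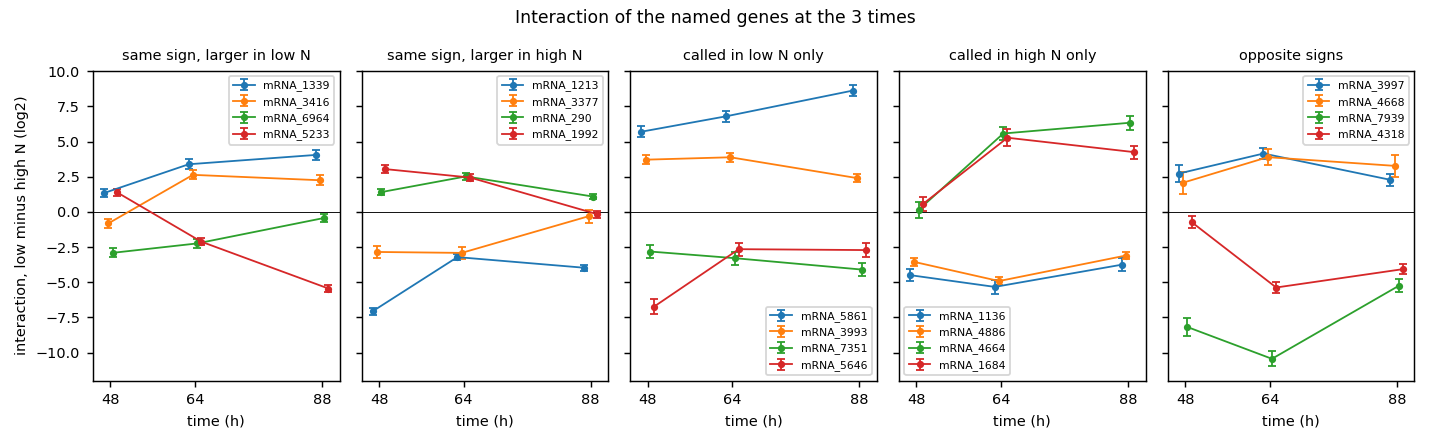
The interaction in log2 units is plotted against time in hours for the 20 named genes, a panel per pattern, with error bars of 1 SE and small sideways shifts to separate the points. The line of mRNA_5233 crosses 0 between 48 and 64 h, and those of mRNA_4664 and mRNA_1684 rise from near 0 at 48 h to 5.57 and 5.27 at 64 h.

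Gene structure was not used in sorting the genes. Single-exon genes were 3.48% of the interaction genes, against 4.43% of all genes tested, and genes of 20 or more exons 0.752% against 0.806%. A coding length below 300 bp was found for 2.08% against 2.44%. The genes called in low nitrogen only had a median coding length of 1659 bp, those called in high nitrogen only 1152 bp, and all genes tested 1233 bp. Genes of 20 or more exons made up 2.00% of those called in low nitrogen only and 0.453% of those called in high nitrogen only, which is 16 and 11 genes. These patterns also differed in abundance, with a median of 99.0 and 63.6 CPM in the highest group. Whether detection adds to the contrast in length was not tested.

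Some interaction genes lay side by side. There were 10 runs of at least 4 adjacent genes with interactions of at least 2-fold and 1 sign. The longest had 5 genes on scaffold 3 between 1630371 and 1635855, with interactions from 1.45 to 1.87, of which 4 were called in high nitrogen only. A run of 4 on scaffold 10 between 46757 and 53238 had interactions from -4.58 to -1.55, and 3 of its genes were of opposite sign. One on scaffold 3 between 306008 and 312953 ran from 1.03 to 4.78. These runs were picked after their values were seen and were not tested.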

How the data were processed

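Per the labels' protocols, RNA of the 36 samples went through a stranded mRNA kit and paired-end sequencing with 151 cycles. The deposited values are whole-number counts per mRNA of the strain's gene catalogue. The descriptions name a unit scaled to depth, which the differing library totals go against. The submitters' processing notes name STAR 2.7.10a, Subread 2.0.4 with featureCounts, Trimmomatic 0.39 and quality tools. Whether strand was used in counting, and how multiply matching reads were treated, are not given in the sources used here. Positions are other values, taken from the deposited catalogue.

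The software was edgeR 4.0.16 under R 4.3.3. Its default expression filter kept 8314 of 8490 genes and left out 176. All 36 libraries entered 1 quasi-likelihood fit with TMM factors and a mean for each of 12 groups. Benjamini-Hochberg adjustment covered all genes of a comparison, and genes below 0.05 were called. All adjusted p are from this test. SE was taken as the absolute log2 value over the root of its F statistic, which can be too small at few counts. CPM use the TMM factors, and log2 CPM a prior count of 2. Means of replicates are over n = 3.

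For each pattern up to 2 raised and 2 lowered genes were named, those with the largest absolute interaction that was called in the main fit and in each of 12 fits without 1 library. They also had at least 10 CPM in the highest group, a 2-fold change in the defining medium (0.5 log2 units in both for opposite signs), no overlap between its acetate and control libraries, and no exon shared with another gene. The patterns, lists and tests were chosen with earlier results of these data known. The 5 lists of gene symbols had 0 members, since no table pairs the numbers with names. The test between times, and the alternatives at 48 and 88 h, were added after seeing the data. Alternatives were DESeq2 1.42.0, RLE factors, library totals alone, 2 other filters, a fit of 12 libraries, a replicate block, libraries left out and thinning to 10173719 counts.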

Additional observations from a re-analysis of the deposited data

Results flagged for a closer look

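Both acetate effects differed by the interaction test in 4656 genes, and for all 20 named genes, which were chosen for it. The interaction, as low minus high nitrogen in log2 units, was 3.39 for mRNA_1339, 2.64 for mRNA_3416, -2.24 for mRNA_6964 and -2.12 for mRNA_5233, whose effects had the same sign and were larger in low nitrogen. It was -3.21 for mRNA_1213, -2.91 for mRNA_3377, 2.52 for mRNA_290 and 2.44 for mRNA_1992, with the same sign and a larger effect in high nitrogen. For the genes called in low nitrogen only it was 6.79 for mRNA_5861, 3.88 for mRNA_3993, -3.28 for mRNA_7351 and -2.65 for mRNA_5646. For those called in high nitrogen only it was -5.33 for mRNA_1136, -4.91 for mRNA_4886, 5.57 for mRNA_4664 and 5.27 for mRNA_1684. With opposite signs it was 4.15 for mRNA_3997, 3.89 for mRNA_4668, -10.44 for mRNA_7939 and -5.37 for mRNA_4318. Groups of 3 are too small to test for an outlying sample.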

How the results depend on the processing

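All 20 named genes kept the sign and the call of their interaction under the 21 alternatives, and 13 kept their pattern under all of them. In the 12 fits without 1 library the call was a condition of naming, so it was fixed in advance there. The number of interaction genes lay between 4169 and 4557 without 1 library of 64 h, and was 3982 without both libraries that stood apart and 4727 with DESeq2. With library totals alone 644 genes had the same sign and a larger effect in high nitrogen, against 384. Of the 4431 interaction genes shared with that setting 2692 kept their pattern, and of the 3738 shared without both libraries that stood apart 3131. The cause was not tested. Asking each effect and the interaction to be at least 2-fold sorts the genes anew, since an effect under 2-fold then counts as absent, and gave 13 of the same sign and larger in low nitrogen, 31 larger in high nitrogen, 151 called in low nitrogen only, 870 in high nitrogen only and 32 of opposite sign. Of the 870 genes 723 had that pattern before, 80 were of the same sign and 67 of opposite sign, and of the 151 genes 101 had it before. A further 392 genes had a 2-fold interaction but no called effect of at least 2-fold in either medium. Of these, 223 were of opposite sign before. The replicate block gave 4568 interaction genes. Same-numbered libraries of different groups had correlations between -0.06 and 0.20 in their deviations from the group means, over 0.1 in 3 of 18 pairs. Between both low-nitrogen groups they were 0.067, 0.160 and 0.067, against -0.160 to 0.045 for unlike numbers. Between both high-nitrogen groups they were 0.016, -0.065 and -0.020, against -0.130 to 0.099. The values cannot decide whether a number marks a colony. No pairs were taken in the main fit, so sharing of colonies between groups is not allowed for in its p-values. Leaving out 1 library moved each of these pattern counts by less than 1.5 times its value with all libraries, to between 104 and 174 genes of the same sign and larger in low nitrogen, 302 to 442 larger in high nitrogen, 581 to 896 in low only, 1844 to 2625 in high only and 602 to 827 of opposite sign. Genes with few counts, such as mRNA_7939 and mRNA_1684, are limited by depth.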
